A study of Oryza sativa with 4 samples.

Results

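The genes described here encode the enzymes that write DNA methylation in rice (*Oryza sativa*), together with the Polycomb group and related chromatin genes that could be measured beside them. They were taken by name: a gene belonged to the set if its symbol or a synonym, with or without the prefix Os, was a MET1, CMT or DRM DNA methyltransferase, DDM1a, DDM1b, ROS1a, CLF, FIE1, FIE2, EMF2a or EMF2b, and if it had a probe set of its own on the array. Of 17905 genes with a probe set of their own, 5 met the rule, namely *MET1a*, *MET1b*, *CMT3*, *DRM2* and *DRM3*. Another gene, *CMT1*, was found by name but had no probe set of its own, and 9 of the 19 names (*CMT2*, *DDM1a*, *DDM1b*, *ROS1a*, *CLF*, *FIE1*, *FIE2*, *EMF2a* and *EMF2b*) matched no entry in the gene table used. All 5 members are thus DNA methyltransferase genes, and the Polycomb group was followed through a separate list of its partners.

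Transcripts were measured in whole panicles of paddy-grown *O. sativa* ssp. *indica* from Beijing, on 4 Affymetrix rice arrays. The wild type (WT) was Zhongxian 3037, and the mutant was *phoenix* (*pho*), in whose panicles plantlets take the place of flowers and which arose among the offspring of that variety. By the study's account, *pho* carries both a mutated *OsMADS15* (*dep*) and an *OsMADS1* that is silent without a change in its sequence (*afo*). For each genotype, replicate 1 was 1 array of panicles 5–8 cm long and replicate 2 was 1 array of panicles 9–12 cm long, although the methods mention only the shorter length. One line in the description of the longer WT sample mentions *pho*, but its title, source and genotype all say WT, and it was taken as WT. No source says that the panicles came from separate plants, so the p-values measure only the spread between these samples. In the fit with genotype alone, this spread holds the difference in panicle length as well. Fits with both genotype and panicle length leave 1 residual degree of freedom per probe set. A whole panicle is a mixture of tissues, in which fewer cells of a type and less RNA per cell cannot be told apart.

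In plants, cytosines are methylated in several sequence contexts, each by its own enzymes. MET1 copies CG methylation onto the new strand after DNA replication, CMT3 maintains CHG methylation (H being any base but G) at chromatin that carries histone H3 lysine 9 methylation, and DRM2 adds methylation in all contexts where small RNAs direct it. Polycomb repressive complex 2 works on the histone side by trimethylating lysine 27 of histone H3, and both systems can keep a gene silent through cell divisions. None of these marks was measured by the arrays, which read only the transcripts of the genes.

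The values are MAS5 signals, the linear brightness of a probe set after each array was scaled by the authors to the same overall intensity. Signals of different probe sets are not comparable in level, so no gene's level was set against another's, and a sum over a marker list, which its brightest probe sets dominate, was compared only with the same sum on other arrays. The median signal lay between 49.0 and 68.1 on the 4 arrays, and the arrays correlated at 0.796 to 0.935 over the tested probe sets, with the *pho* array of 9–12 cm lowest (0.796 to 0.827). The ratio of the 3′ to the 5′ actin control was 10.6 on the WT array of 5–8 cm and between 3.28 and 5.26 on the others. For the GAPDH control it was 16.4 (WT) and 6.87 (*pho*) at 5–8 cm, and 9.62 (WT) and 10.96 (*pho*) at 9–12 cm. All 4 arrays thus read the 3′ end of these controls more strongly, to different degrees, and the part of this in the results was not tested. As a check of the genotypes, *OsMADS1* (the floral gene silent in *pho*) gave 10166 (5–8 cm) and 10671 (9–12 cm) in WT, where *pho* gave 4.60 and 109.3. Its adjusted p was 0.181 from limma with genotype alone, and 0.0401 when panicle length was the block. Of the 9 tested panicle and floret markers that served to check the tissue, 5 (*OsMADS1*, *OsMADS6*, *OsMADS7*, *OsMADS8* and *DL*) were at least 2-fold lower in *pho* at both lengths and 4 (*OsMADS14*, *OsMADS15*, *OsMADS34* and *RFL*) were higher at both. With the block, *OsMADS7* and *OsMADS8* passed the threshold too (adjusted p = 0.0231 and 0.0322 from limma). *OsMADS15*, whose defect in *pho* lies in the coding sequence, gave 14444 to 16022.

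No member differed between *pho* and WT past the threshold. Over the 23929 probe sets averaging 100 or more, limma called 0 at an adjusted p under 0.05 (0% of those tested), with 826 higher and 809 lower in *pho* at an unadjusted p under 0.05, and a smallest adjusted p of 0.0773. With panicle length as a block it called 40 probe sets, 8 higher and 32 lower, none of them a member. At an unadjusted p under 0.05 the members again gave 0 of 5, against 6.83% of all tested probe sets. At 5–8 cm the signals of the 5 genes in *pho* lay within 0.27 of WT on the log2 scale. At 9–12 cm *MET1b* and *CMT3* had much lower signals in *pho*, while *MET1a*, *DRM2* and *DRM3* stayed within 0.28 of WT.

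**Figure D1:**
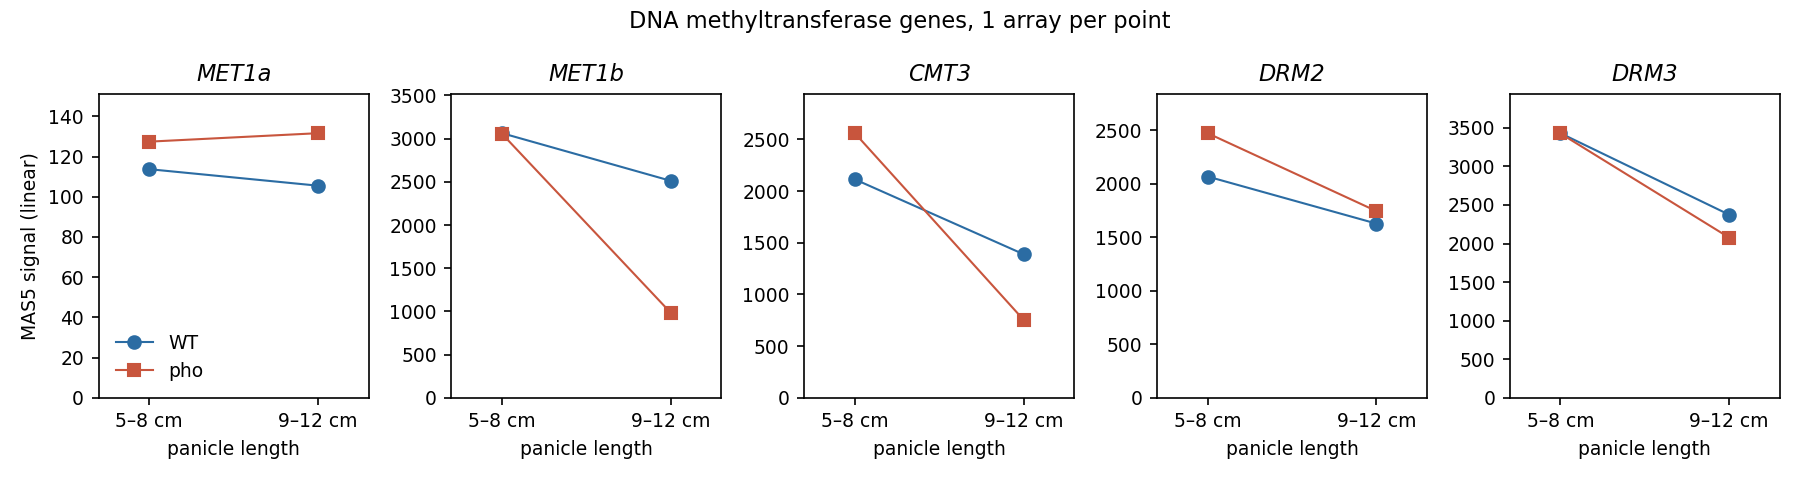
MAS5 signal (linear, each panel with its own scale from 0) of the 5 DNA methyltransferase genes in WT (blue circles) and *pho* (red squares) panicles of 5–8 and 9–12 cm, with 1 array per point and no error bars. *MET1b* and *CMT3* show a gap between the genotypes at 9–12 cm, with *pho* at 983.6 and 755.0 and WT at 2511 and 1390.

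*MET1b* (also OsMET1-2, LOC4342575) encodes the main enzyme that maintains CG methylation in rice. In 5–8 cm panicles the signal was 3062 for WT against 3055 for *pho*, and in 9–12 cm panicles 2511 for WT against 983.6 for *pho*. The genotypes were thus almost the same in the shorter panicles, and the *pho* array of 9–12 cm lay far below the other 3. At 9–12 cm the WT signal was 2.55-fold that of *pho*. Over both lengths the mean was 2787 ± 390.0 in WT and 2019 ± 1460 in *pho* (SD, n = 2). The log2 fold change of *pho* over WT on the log2(signal + 16) scale was -0.67 with a 95% interval of -2.17 to 0.82 (adjusted p = 0.819 from limma). Leaving out the longer *pho* panicles turned it to 0.14.

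*CMT3* (LOC4347954) encodes the chromomethylase that maintains CHG methylation. The arrays of 5–8 cm gave 2114 (WT) and 2561 (*pho*), those of 9–12 cm 1390 (WT) and 755.0 (*pho*). The *pho* panicles held both the highest and the lowest of the 4 values, so that *pho* lay 0.27 above WT at the shorter length and 0.87 below it at the longer one on the log2 scale (log2 ratios of 0.27 and -0.87, 1 array each, no test). The means were 1752 ± 512.0 in WT and 1658 ± 1280 in *pho* (SD, n = 2). The log2 fold change was -0.30 with an interval of -1.95 to 1.36 (adjusted p = 0.926 from limma), and it was 0.57 without the *pho* array of 9–12 cm.

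*DRM2* (LOC4331357) encodes the methyltransferase of RNA-directed DNA methylation. In 5–8 cm panicles the signal was 2069 for WT against 2474 for *pho*, and in 9–12 cm panicles 1629 for WT against 1746 for *pho*. The *pho* array was the higher of each pair, by 0.26 and 0.10 on the log2 scale, while the ranges of the genotypes overlapped. The log2 fold change was 0.18 with an interval of -0.65 to 1.01 (adjusted p = 0.908 from limma), the narrowest interval of the 5 genes.

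*DRM3* (LOC4337721) is a relative of *DRM2*, and in *Arabidopsis* its namesake lacks catalytic activity and assists DRM2. The arrays of 5–8 cm gave 3430 (WT) and 3426 (*pho*), those of 9–12 cm 2373 (WT) and 2077 (*pho*). The genotypes were nearly equal at the shorter length and differed by less than the lengths did at the longer one. The log2 fold change was -0.10 with an interval of -1.06 to 0.87 (adjusted p = 0.962 from limma). Another probe set of the gene, of a kind that can match several transcripts, gave 1690 and 1785 in the shorter and 1128 and 1085 in the longer WT and *pho* panicles, and was likewise lower with length. The last one was dim, between 44.4 and 120.6.

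*MET1a* (also OsMET1-1, LOC4334435) is the second MET1 gene of rice. In 5–8 cm panicles the signal was 113.7 for WT against 127.4 for *pho*, and in 9–12 cm panicles 105.5 for WT against 131.6 for *pho*. Both *pho* arrays lay above both WT arrays, by a small margin in a dim probe set whose mean barely passed the minimum of 100. The means were 109.6 ± 5.80 in WT and 129.5 ± 2.97 in *pho* (SD, n = 2). The log2 fold change was 0.21 with an interval of -0.95 to 1.38 (adjusted p = 0.925 from limma).

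The members' directions were read beside those of all tested probe sets. *MET1a* was the 1 member of 5 whose *pho* signals both lay above WT, a pattern seen in 17.9% of all probe sets, and 0 of 5 had both *pho* signals below WT, against 21.1%. Compared length by length, 2 of 5 were higher in *pho* at both lengths (*MET1a* and *DRM2*), against 28.5% of all probe sets. Another 2 were lower at both (*MET1b* and *DRM3*, each almost equal to WT at 5–8 cm), against 32.5%, and *CMT3* lay on opposite sides of WT at the different lengths, as did 39% of all probe sets. With the longer *pho* panicles left out, the remaining *pho* array lay outside the range of WT for 3 of 5 members, against 73.2%. A difference of at least 2-fold between the genotypes was shown by *MET1b* alone, which was lower in *pho* at 9–12 cm, where 10.5% of all probe sets were. No member was at least 2-fold lower at 5–8 cm (3.78% of all), at least 2-fold higher at 5–8 cm (5.62%) or at least 2-fold higher at 9–12 cm (13.3%).

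Most members had lower signals in the longer panicles. In *MET1b*, *CMT3*, *DRM2* and *DRM3* both 9–12 cm signals lay below both 5–8 cm signals, which is 4 of 5 members against 23.9% of all tested probe sets. Without the *pho* array of 9–12 cm, the WT array of that length lay below both 5–8 cm arrays for 5 of 5 members, against 38.3%. In WT the signals at 5–8 cm were 1.08-fold (*MET1a*) to 1.52-fold (*CMT3*) those at 9–12 cm, and 0 of 5 members were lower at 9–12 cm by at least 2-fold (3.09% of all probe sets). In *pho* the signals at 5–8 cm were 3.11-fold those at 9–12 cm for *MET1b*, 3.39-fold for *CMT3*, 1.42-fold for *DRM2*, 1.65-fold for *DRM3* and 0.97-fold for *MET1a*, so that 2 of 5 were lower by at least 2-fold, against 10.8%.

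With genotype as a term, limma called no probe set for panicle length (0% of 23929), and at an unadjusted p under 0.05 it had 1672 higher and 853 lower at 9–12 cm. Among the members, 1 of 5 had an unadjusted p under 0.05. This was *CMT3*, with a log2 difference of -1.17 between the lengths, an interval of -2.10 to -0.24 and an adjusted p of 0.434 from limma. The corresponding log2 differences were -0.95 for *MET1b*, -0.62 for *DRM3*, -0.42 for *DRM2* and -0.03 for *MET1a*, with adjusted p-values of 0.475 (*DRM3*) to 0.990 (*MET1a*) from limma. Whether the change with length differed between the genotypes cannot be tested with 1 array for each genotype and length.

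Genes of DNA replication and cell division moved alongside *MET1b* and *CMT3*. MET1 acts behind the replication fork, and the list of dividing-cell genes (replication licensing factors, *PCNA*, replication protein A, cyclins and a mitotic kinase) marks cells that divide. The signals of its 22 genes summed to 43844 (WT) and 50446 (*pho*) in the shorter panicles and to 32080 (WT) and 18079 (*pho*) in the longer ones, so that the *pho* array of 9–12 cm was again the lowest. At 5–8 cm 18 of the 22 were higher in *pho* than in WT (median log2 ratio 0.27, all tested probe sets 0.02), and at 9–12 cm 21 of the 22 were lower (median -0.78, all tested probe sets -0.10). Both 9–12 cm signals lay below both 5–8 cm signals in 20 of the 22 genes, against 23.9% of all tested probe sets. In *pho*, 19 of the 22 were at least 2-fold lower at 9–12 cm (10.8% of all), and in WT 0 of the 22 were (3.09% of all). None passed the test between genotypes.

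*PCNA*, the sliding clamp of DNA polymerase, read 5294 (WT) and 5154 (*pho*) in the shorter and 3808 (WT) and 2038 (*pho*) in the longer panicles. *MCM3*, a subunit of the replicative helicase, read 3048 (WT) and 3592 (*pho*) in the shorter and 1866 and 991.8 in the longer panicles. The order of the arrays was that of *MET1b* for *PCNA* and that of *CMT3* for *MCM3*, with WT and *pho* close at the shorter length and *pho* lowest at the longer one. *CYCD3;1*, a cyclin of the entry into the cell cycle, went furthest with length, from 2822 to 511.5 in *pho* and from 2262 to 1734 in WT. Not all genes of the list had these orders. A *CYCB1;1* gene (LOC4326914), with the largest absolute log2 fold change of the list (-0.88), went from 337.1 to 489.7 in WT. In *pho* this gene went from 381.6 to 116.6. The part of dividing cells in the *MET1b* and *CMT3* values was not tested.

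**Figure D2:**
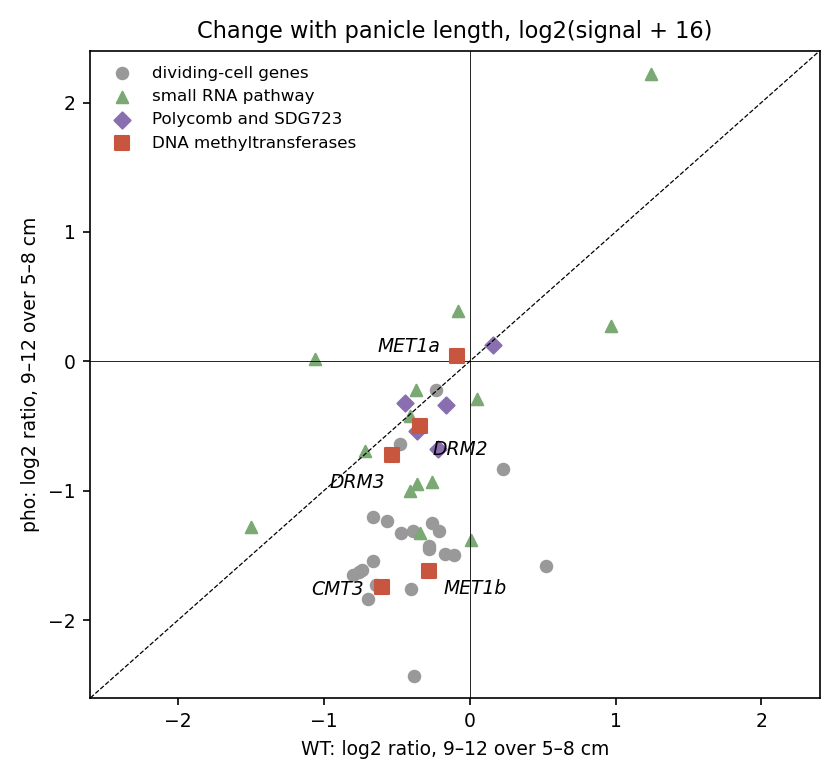
Log2 ratio of the 9–12 cm over the 5–8 cm signal, on log2(signal + 16), in WT (horizontal axis) and in *pho* (vertical axis), 1 gene per point, with the dashed line where both are equal. *MET1b* (-0.28 in WT, -1.62 in *pho*) and *CMT3* (-0.60, -1.74) lie among the grey dividing-cell genes, whose medians are -0.40 and -1.47, whereas *DRM2*, *DRM3* and the Polycomb genes lie nearer the line.

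Markers of other tissues were also set beside the members. With genotype alone none passed the test (smallest adjusted p = 0.181 from limma for anther and germ cell, 0.563 for leaf and chloroplast markers), while with the block the anther gene *C4* passed it (log2 fold change -6.14, adjusted p = 0.0133 from limma). All 9 tested anther and germ cell markers were lower in *pho* at both lengths, against 32.5% of all tested probe sets. The sum over the 10 with a probe set was 13847 and 38300 in WT and 1742 and 1665 in *pho* at 5–8 and 9–12 cm, and *C4* (22432) and *CYP703A3* (8069) made up most of it in the longer WT panicles, where 4 of the 9 were lower than in the shorter ones. Of 11 tested leaf and chloroplast markers, 10 were higher in *pho* at both lengths, against 28.5% of all tested probe sets. For *CHLH*, 1 of these 10, another probe set was lower in *pho* at both lengths. It gave 1487 and 1536 in WT against 956.9 and 362.5 in *pho*. The sum over the 12 markers with a probe set was 29622 and 21856 in WT against 41547 and 71889 in *pho*. This sum was thus highest on the array where *MET1b* and *CMT3* were lowest. It was lowest, however, in the longer WT panicles, where both genes lay below their 5–8 cm signals. In the shorter *pho* panicles, where *CMT3* was highest, the sum lay above both WT sums. Of 6 endosperm markers with a probe set, 2 passed the minimum signal, and both were higher in *pho* at both lengths (28.5% of all tested probe sets). *GLUA2*, a glutelin storage protein gene, gave 74.2 to 94.2 on 3 arrays and 409.8 in the longer *pho* panicles, where its other probe set read 65.1. *SBE1*, a starch branching enzyme gene, gave 2847 to 4209. Among those under the minimum, the glutelin gene *GLUA1* gave 1.3 to 7.7, and *NF-YB1* gave 10.5 and 11.1 in WT and 64.9 and 122.0 in *pho*. *WX1* went the other way, with 136.3 and 54.8 in WT and 42.1 and 37.6 in *pho*. *GLUB4* was mixed, with 14.2 and 42.8 in WT and 34.3 and 41.2 in *pho*. The part of these tissues in the methyltransferase values was not tested.

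Removal of DNA methylation could be followed in 1 gene. *DNG701* (ROS1c) encodes a DNA glycosylase that cuts out methylated cytosine. The arrays of 5–8 cm gave 4502 (WT) and 3673 (*pho*), those of 9–12 cm 4044 (WT) and 1787 (*pho*). Both *pho* values lay below both WT values, and, as for *MET1b*, the *pho* array of 9–12 cm was by far the lowest (log2 ratios of -0.29 and -1.17). Another, dim probe set of the gene, of a kind that can match other genes, did not show this order, with 88.1 (WT) and 293.9 (*pho*) in the shorter and 199.1 and 98.6 in the longer panicles. The log2 fold change of the first was -0.73 (adjusted p = 0.763 from limma).

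Small RNAs guide DRM2 to its targets. The 14 tested genes make or use small RNAs in general, and many of them lie outside this branch. None passed the test. In *pho*, 3 were higher at both lengths (28.5% of all tested probe sets), 6 were lower at both (32.5%) and 5 were mixed (39%). At least 2-fold lower signals in *pho* were found for 2 genes at 5–8 cm (3.78% of all) and for 5 at 9–12 cm (10.5%). At 9–12 cm 1 gene (*AGO2*) was at least 2-fold higher in *pho* (13.3% of all). The median log2 fold change was -0.07, against -0.03 for all tested probe sets.

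*RDR2*, the RNA polymerase that makes the double-stranded precursors of the small RNAs for DNA methylation, read 877.7 (WT) and 970.6 (*pho*) in the shorter and 882.0 (WT) and 362.2 (*pho*) in the longer panicles. As in *MET1b*, a single value stood apart, that of the longer *pho* panicles (log2 ratio -1.25, fitted log2 fold change -0.55, adjusted p = 0.828 from limma). *AGO4a* and *AGO4b*, Argonautes that carry these small RNAs, were higher in *pho* at 5–8 cm and slightly lower at 9–12 cm. *AGO4a* gave 11229 (WT) and 13585 (*pho*) in the shorter and 8457 and 6794 in the longer panicles. *AGO4b* gave 5502 and 10288 at 5–8 cm and 4335 and 4096 at 9–12 cm, so that the genotypes differed at the shorter length and hardly at the longer one.

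Outside this branch, *SHL2*, the rice RDR6 that acts in trans-acting small RNAs, was lower in both *pho* arrays. With increasing length it read 950.0 then 983.8 in WT and 416.7 then 336.9 in *pho*, and its log2 fold change of -1.33 had an unadjusted p of 0.00698 and an adjusted p of 0.535 from limma. *MEL1*, the Argonaute of germ cells, read 3179 then 1111 in WT with increasing length and 650.3 then 258.9 in *pho* (log2 fold change -2.15, adjusted p = 0.664 from limma). It is also 1 of the germ cell markers above. *AGO1d* read 12188 then 9481 in WT with increasing length and 7471 then 3860 in *pho* (log2 fold change -1.0, adjusted p = 0.726 from limma). These were the 3 of 14 genes with an unadjusted p under 0.05 (6.83% of all tested probe sets). Together with *DCL4* and *AGO3* they made 5 of 14 with both *pho* signals below both WT signals (21.1% of all), and *DCL2a* and *AGO2* made 2 of 14 with both above (17.9% of all). For *DCL2a* the shorter panicles were almost equal (4139 in WT, 4148 in *pho*). Its other probe set was lower in *pho* in the longer panicles (431.7 in WT, 392.7 in *pho*). *AGO2*, unlike *SHL2*, *MEL1* and *AGO1d*, was higher in *pho*, with 5811 and 2787 in WT and 7222 and 7344 in *pho* (log2 fold change 0.85, adjusted p = 0.762 from limma).

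**Figure D3:**
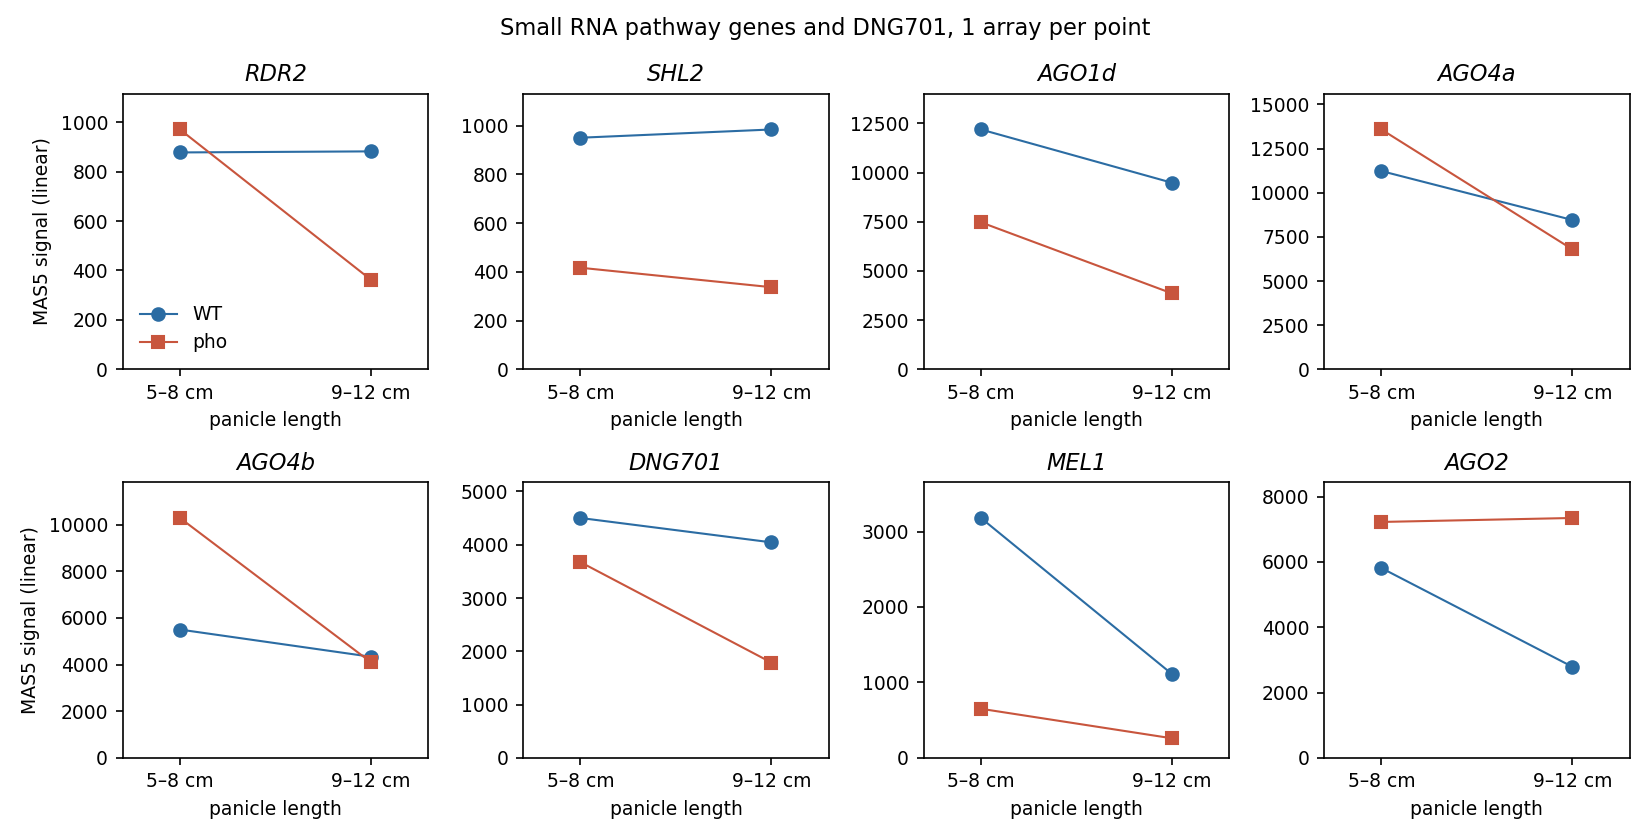
MAS5 signal (linear, each panel with its own scale from 0) of 7 small RNA pathway genes and of the DNA glycosylase gene *DNG701* in WT (blue circles) and *pho* (red squares) at both panicle lengths, 1 array per point and no error bars. All genes shown except *AGO2* have their lowest signal in the longer *pho* panicles. *SHL2*, *AGO1d*, *MEL1* and *DNG701* are lower in *pho* at both lengths, and *AGO2* is higher at both.

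The Polycomb list gave small differences throughout. Of 4 tested genes, 3 were lower in *pho* at both lengths (32.5% of all tested probe sets) and 1 was mixed (39%). None of the 4 (*EZ1*, *MSI1*, *LHP1* and *SDG723*) differed by 2-fold at either length. Their log2 ratios ranged from -0.37 to 0.09, and *SDG723*, a Trithorax-type gene, gave both of these values. The later addition *fie* was not counted among them and had log2 ratios of 0.35 at 5–8 cm and 0.17 at 9–12 cm. *EZ1*, an E(z)-type histone H3 lysine 27 methyltransferase, read 1039 (WT) and 979.4 (*pho*) in the shorter and 1160 (WT) and 1071 (*pho*) in the longer panicles. It was slightly higher in the longer panicles of both genotypes, unlike *MET1b* and *CMT3* (log2 fold change -0.10, adjusted p = 0.944 from limma). *MSI1*, a histone-binding subunit shared by Polycomb and chromatin assembly complexes, read 8129 (WT) and 8044 (*pho*) in the shorter and 7259 and 6354 in the longer panicles, and its other probe set 3128 and 3347, then 2533 and 2263. *fie*, named for the ESC-type subunit that joins these enzymes in the complex and added to the list after the gene table had been read, read 4129 (WT) and 5278 (*pho*) in the shorter and 3220 and 3614 in the longer panicles, with *pho* higher at both lengths (log2 fold change 0.26, adjusted p = 0.859 from limma).

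*LHP1*, which in *Arabidopsis* binds the lysine 27 mark, read 5766 (WT) and 4483 (*pho*) in the shorter and 4234 (WT) and 3580 (*pho*) in the longer panicles. The *pho* array was the lower of each pair, with overlapping ranges (log2 fold change -0.30, interval -1.03 to 0.43, adjusted p = 0.828 from limma). *SDG723*, a Trithorax-type methyltransferase of histone H3 lysine 4, read 1432 (WT) and 1529 (*pho*) in the shorter and 1223 and 946.0 in the longer panicles, so that *pho* was above WT at the shorter length and below it at the longer one. Its other probe sets were dim, between 0.7 and 207.9.

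**Figure D4:**
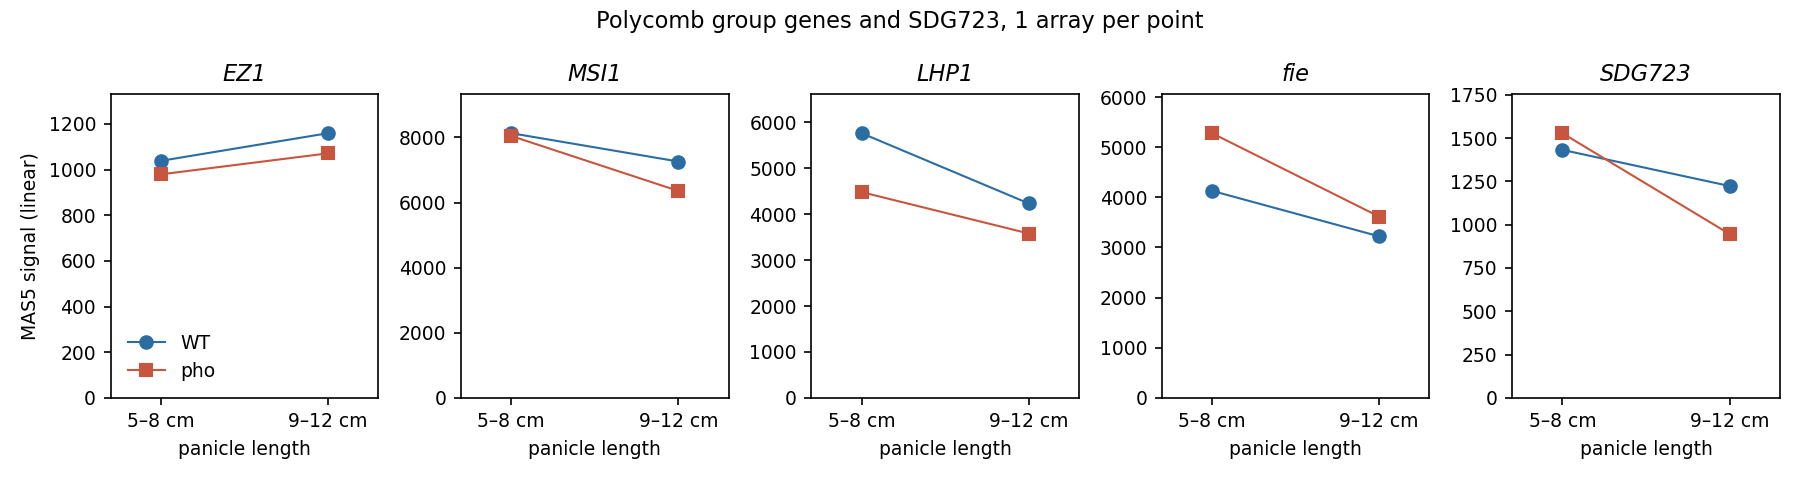
MAS5 signal (linear, each panel with its own scale from 0) of the Polycomb genes *EZ1*, *MSI1*, *LHP1* and *fie* and of *SDG723* in WT (blue circles) and *pho* (red squares) at both panicle lengths, 1 array per point and no error bars. The genotypes lie close at both lengths, with *EZ1* between 979.4 and 1160 on all 4 arrays.

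The remaining chromatin genes were few. *JMJ705*, a demethylase of the Polycomb mark, read 819.2 then 584.5 in WT with increasing length and 748.3 then 350.6 in *pho*, and *JMJ706*, a histone H3 lysine 9 demethylase, read 852.8 then 834.3 in WT with increasing length and 1417 then 903.2 in *pho*. Thus *JMJ705* was lower and *JMJ706* higher in *pho* at both lengths (log2 fold changes of -0.42 and 0.42, adjusted p = 0.847 and 0.813 from limma). The other probe set of *JMJ706* was higher in *pho* in the shorter panicles only (487.1 and 651.3, then 585.4 and 551.6 in WT and *pho*). *GCN5*, a histone acetyltransferase, read 2394 (WT) and 2342 (*pho*) in the shorter and 1595 and 1372 in the longer panicles, and its other probe set 1903 and 1550, then 1127 and 1356, with both probe sets lower in the longer panicles of each genotype. *FAS2*, a subunit of the chromatin assembly factor that follows replication, read 429.5 (WT) and 574.7 (*pho*) in the shorter and 305.8 and 232.8 in the longer panicles, an order of values like that of *CMT3*. *SWI3C*, a subunit of a SWI/SNF remodeller, read 1695 (WT) and 1075 (*pho*) in the shorter and 1202 and 1513 in the longer panicles. The 2 tested synthases of S-adenosylmethionine, the methyl donor of all these methyltransferases, were both higher in *pho* at both lengths (28.5% of all tested probe sets). *SAMS2* gave 6548 and 7875 in WT and 8882 and 10470 in *pho* (log2 fold change of 0.42 with an adjusted p of 0.763 from limma). Its other probe set was dim, with 106.4 and 62.2 in WT and 70.9 and 121.3 in *pho*, and was lower in *pho* in the shorter panicles. *SAM1* gave 12615 and 14983 in WT and 14026 and 17276 in *pho*.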

How the data were processed

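The authors made biotin-labelled cRNA from total RNA of panicles, hybridized it to 1-colour Affymetrix GeneChip Rice Genome Arrays, and deposited MAS5 intensities from GCOS (versions not given in the sources used here), each array scaled to an overall intensity of 500. The trimmed mean of each array was 500.0 in the deposited values. The number of arrays limits the precision. Detection calls, real-time PCR and bisulfite sequencing were not analysed here.

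Of 57381 probe sets, 123 controls were left out, and GEO's platform annotation paired 22436 of the rest with 1 gene. Gene names came from RefSeq symbols and synonyms, and each gene took the probe set with the highest mean. Probe sets averaging 100 or more were tested on log2(signal + 16) in limma 3.58.1 (lmFit, then eBayes with the trend option; R 4.3.3), two-sided, with Benjamini-Hochberg adjustment over all tested probe sets, for genotype alone and for panicle length with genotype. Ratios within 1 panicle length have no test. The scripts were tested on simulated data. Tables were made with pandas 2.3.3 and numpy 2.4.6 in Python 3.11.15, and figures with matplotlib 3.10.9.

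Replicate numbers stand for panicle length in the labels and pair the arrays. Deviations from the genotype means correlated at 0.311 between the arrays of replicate 1. Tried instead were pseudocounts of 1 and 64, a minimum mean of 200, no minimum, quantile normalization, centring on either median, panicle length as a block, no trend, other probe set rules, and each array left out in turn.

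The members and lists were chosen with earlier results of these data known. The rule for names took all members, *OsMADS1*, and the 2 tested genes with the largest absolute log2 fold change in each other list. Other genes given with values (among them *RDR2*, *AGO1d*, *AGO2*, *AGO4a*, *AGO4b*, *EZ1*, *MSI1*, *PCNA*, *MCM3*, *OsMADS15*, *CYP703A3*, *CHLH*, *GLUA1*, *GLUB4*, *WX1* and *NF-YB1*) were chosen after their values were seen. Some that the rule takes are not printed.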

Additional observations from a re-analysis of the deposited data

Results flagged for a closer look

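Among the tested chromatin, methylation and small RNA genes, 10 had the *pho* array on opposite sides of the WT array at the 2 panicle lengths, a pattern that 39% of all tested probe sets showed. By list they were 1 of 5 members, 5 of 14 small RNA genes, 1 of 4 in the Polycomb list and 1 of 3 histone demethylases. The chromatin remodelling and assembly genes gave 2 of 2. *DNG701*, *GCN5*, *fie* and the 2 methyl donor genes did not show the pattern. The values in brackets below are the differences between the log2 ratios of *pho* over WT, 9–12 cm minus 5–8 cm. Higher in *pho* at 5–8 cm and lower at 9–12 cm were *RDR2* (-1.39), *CMT3* (-1.14), *AGO4b* (-0.98), *FAS2* (-0.78), *AGO1c* (-0.66), *AGO4a* (-0.59) and *SDG723* (-0.46). Lower at 5–8 cm and higher at 9–12 cm were *SWI3C* (0.98), *AGO18* (0.98) and *JMJ703* (0.44). Of the dividing-cell genes, 17 of 22 were on opposite sides, among them *MCM3* (-1.14) and *CYCD3;1* (-2.05). These differences were not tested, because each length holds 1 array per genotype.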

How the results depend on the processing

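No member passed the threshold for genotype or panicle length under any alternative run. The adjusted p-values from limma for *pho* against WT over the alternatives ranged from 0.107 to 1.0 for *MET1b*, from 0.186 to 1.0 for *CMT3*, from 0.763 to 1.0 for *DRM2*, from 0.463 to 1.0 for *DRM3* and from 0.782 to 1.0 for *MET1a*. Leaving out each array in turn moved the log2 fold change between -1.48 and 0.14 for *MET1b*, between -1.17 and 0.57 for *CMT3*, between -0.07 and 0.43 for *DRM2* and between -0.46 and 0.26 for *DRM3*, so that each of these changed sign. Without the *pho* array of 9–12 cm it was 0.14 for *MET1b*, 0.57 for *CMT3* and 0.26 for *DRM3*, without the WT array of 5–8 cm it was 0.17 for *DRM3* and about 0 for *CMT3*, and without the *pho* array of 5–8 cm it was -0.07 for *DRM2*. Without the *pho* array of 9–12 cm, 3 members in place of 1 did not overlap between the genotypes, where 73.2% of all tested probe sets did not. These fits take the spread of a genotype left with 1 array from the other genotype.

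With the replicate number as a block, which pairs the arrays by panicle length, 40 probe sets in place of 0 were called between the genotypes, 8 higher and 32 lower in *pho*. The block changed no call of a member. Centring each array on the median of all probe sets gave 51 calls (11 higher, 40 lower) for genotype and 14 (13 higher, 1 lower) for panicle length, the latter chosen after seeing the data, as were the counts without the *pho* array of 9–12 cm. The same centring put 2 members in place of 1 at a 2-fold difference within a length, adding *CMT3* at 9–12 cm (log2 ratio -1.0), and moved the median log2 difference between the lengths from -0.08 to -0.36. The medians subtracted were 6.022 (WT) and 6.055 (*pho*) for the shorter and 6.257 (WT) and 6.394 (*pho*) for the longer panicles (log2 scale). By construction this lowers the longer panicles against the shorter ones, and at the longer length *pho* against WT. The *CMT3* ratio and the median difference between the lengths moved for this reason. Why the array medians differ, and what changed the numbers of calls, was not tested. *MET1a* has no value at a minimum mean signal of 200. Its dim signal, and the 1 array per genotype and length, limit what can be read from it.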
